A study of Mus musculus with 4 samples.

Results

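Expression of 8 genes known from anterior limb mesenchyme, Pax1, Pax9, Alx1, Alx4, Irx3, Irx5, Asb4 and Meox2, was followed in mouse forelimbs cultured with the Hedgehog pathway inhibitor cyclopamine or in control medium. The genes were chosen by name, as genes restricted to or stronger in the anterior limb, and all 8 were found among the 17568 genes of the expression table. The embryos were wild type, of the Swiss Webster strain, taken at E10.25 with 31 to 34 somites. There were 2 libraries from forelimbs treated with cyclopamine (spelled cyclopmaine in the labels) and 2 from control forelimbs. They are labelled as biological replicates, with no count of the embryos or cultures behind each, so the spread between them may be partly technical. The labels state no dose, vehicle or length of culture.

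Along the thumb-to-little-finger axis of the limb, Sonic hedgehog is made by posterior mesenchyme and signals towards the anterior side. Where the signal is low, GLI3 is processed into a transcriptional repressor, and anterior mesenchyme keeps a set of transcription factors of its own. Cyclopamine binds Smoothened, the membrane protein that passes the Hedgehog signal into the cell. The study compared forelimbs with and without that block, and the anterior genes are those expressed away from its source.

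The 4 libraries held between 9779589 and 13555492 reads assigned to genes, and values are given as counts per 1000000 of an effective library size (CPM). The Hedgehog targets were read first, as a check of the labels. Gli1, a transcription factor gene induced by the pathway, measured 8.05 and 4.70 CPM in cyclopamine against 56.2 and 56.7 CPM in control. Of the 3 targets listed, Gli1 and Ptch1 fell in limma over all genes, in the fit of all 4 libraries and in each of the 4 fits without a library, and Hhip had an adjusted p = 0.289. The 8 limb mesenchyme markers were all detected in every library, between 10.6 CPM (Msx1) and 783 CPM (Prrx1). Limma, edgeR and DESeq2 called 0 of these 8, and 1 had an unadjusted p under 0.05, the mesenchymal growth factor gene Fgf10, at 46.0 and 39.7 CPM in cyclopamine against 68.0 and 62.2 CPM in control (-0.60, SE 0.16, limma adjusted p = 0.255). The 3 hindlimb markers, Pitx1, Tbx4 and Isl1, were detected too and summed to 11.2 and 13.5 CPM in cyclopamine against 15.5 and 8.08 CPM in control, with Tbx4 the highest of them in every library. In bulk tissue, fewer cells of a type and less RNA per cell cannot be told apart.

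None of the anterior genes passed the test when the cyclopamine group was set against the control group with no block for replicate number. Pax1 had the smallest p. In limma, 0 of the 8 passed an adjusted p of 0.05 in either direction, where 0.28% of all 13568 genes tested did, made up of 0.0442% higher and 0.236% lower. At an unadjusted p under 0.05, 1 of the 8, Pax1, lay above control, as did 3.04% of all genes tested. EdgeR and DESeq2 on the recovered reads also called 0 of 8, and called 0.295% and 0.383% of all genes. With replicate number as a block, limma called 2 of the 8 higher, Pax1 and Irx5, and 1.37% of all genes tested. The labels tie these numbers to no shared source, so the block was kept as an alternative. By log2 fold change, 7 of the 8 lay above control and Meox2 lay below, or 6 of the 7 other than Pax9, where 51% of all genes tested lay above 0. The median log2 fold change was 0.27 over the 8 genes and 0.21 over the 7 other than Pax9, against 0.0045 over all genes tested. Pax9 reached the expression filter, a mean of 1 CPM over the 4 libraries, through its cyclopamine libraries, so the count and the median that include it are given as a description. With 2 libraries against 2, an exact permutation test cannot give a two-sided p below 0.333, and the model relies on the spread shared across genes.

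**Figure D1:**
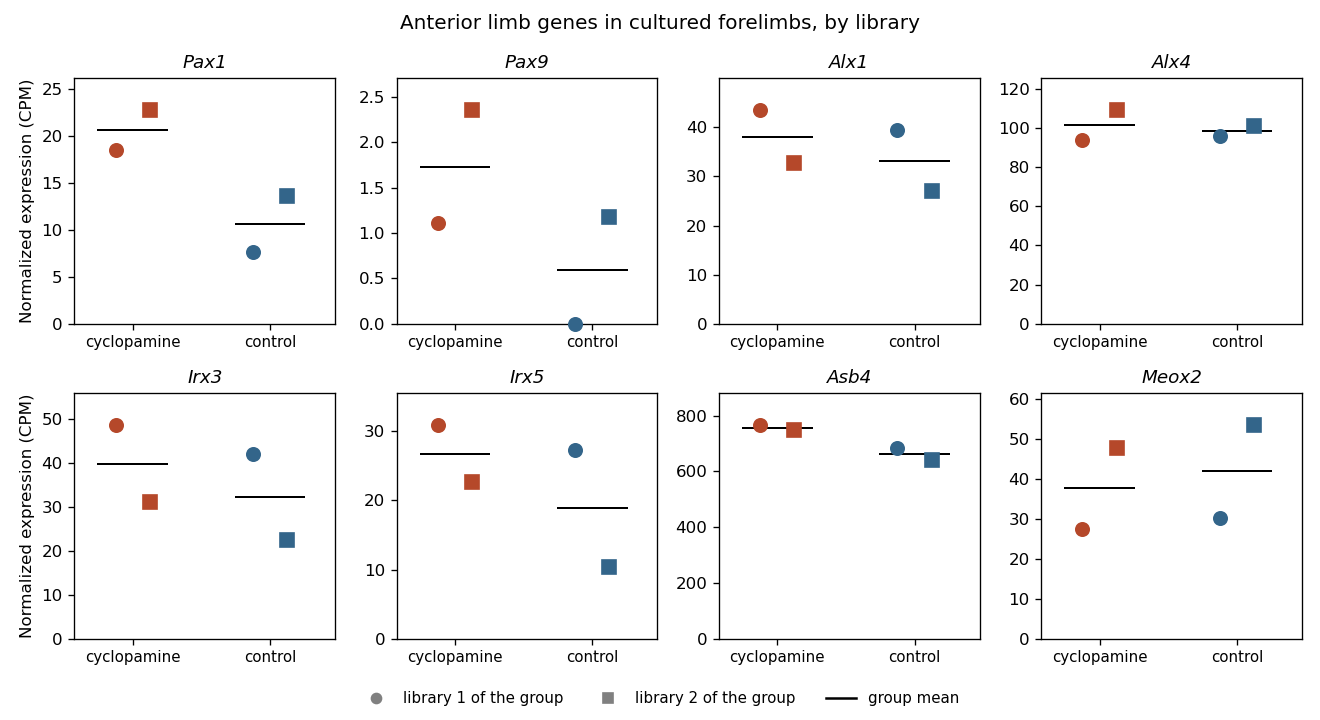
Normalized expression (CPM, linear axes from 0) of the 8 anterior genes in each library, with cyclopamine left of control in every panel; circles are library 1 and squares library 2 of a group, and bars are group means. Both cyclopamine points lie above both control points for Pax1 and Asb4. For Pax9, Alx1, Alx4, Irx3, Irx5 and Meox2 the groups overlap, while circles and squares do not.

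Pax1 encodes a paired-box transcription factor known from the sclerotome, the shoulder girdle and the anterior proximal limb. It measured 18.5 and 22.7 CPM in cyclopamine against 7.63 and 13.6 CPM in control. Both treated libraries lay above both controls, an arrangement found in 16.8% of the genes tested. The group means were 20.6 ± 2.99 CPM in cyclopamine and 10.6 ± 4.21 CPM in control (SD, n = 2 each). The log2 fold change was 0.97 (SE 0.26, 95% interval 0.42 to 1.52, limma adjusted p = 0.255), and 99.2% of the genes tested had a lower value. The call depended on the libraries included. Pax1 rose without control 2 (1.37, adjusted p = 0.0161, with 0.176% of genes called higher) and without cyclopamine 1 (1.11, adjusted p = 0.0466, with 0.5% called higher). It did not pass without control 1 (0.57, adjusted p = 0.559) or without cyclopamine 2 (0.82, adjusted p = 0.501). The counts behind these values were 234 and 280 reads in cyclopamine against 74 and 185 reads in control. In the authors' deposited table the gene has a log2 fold change of 0.94 and a false discovery rate of 0.203, where 0.108% of all genes are marked higher at a rate under 0.05.

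Pax9, the close relative of Pax1 in the same Pax subfamily, is known from the pharyngeal pouches, the sclerotome and anterior limb mesenchyme. It lay near the limit of detection, at 1.10 and 2.35 CPM in cyclopamine against 0 and 1.18 CPM in control. Cyclopamine 1 and control 2 were alike, so the groups overlapped. These values rest on 14 and 29 reads in cyclopamine against 0 and 16 reads in control. The exact Poisson 95% intervals, which cover counting error only, were 0.604 to 1.85 CPM and 1.57 to 3.37 CPM in the cyclopamine libraries and up to 0.381 CPM and 0.672 to 1.91 CPM in the controls. The log2 fold change was 1.22 (SE 0.58, limma adjusted p = 0.864). It ranged from 0.85 with a pseudocount of 1 to 2.27 with a pseudocount of 0.1, and it was 0.35 without control 1 and 2.10 without control 2. Without cyclopamine 2 the gene fell under the expression filter. Of the other Pax genes, 5 were found in the table and 2 were tested. Limma, edgeR and DESeq2 called 0 of the 2, and 1, Pax6, had an unadjusted p under 0.05. Pax6 reached the expression filter through its control libraries, so the counts that include it are given as a description. Pax3, which marks muscle precursors that enter the limb, measured 20.7 and 16.8 CPM in cyclopamine against 12.6 and 19.1 CPM in control (0.26, SE 0.23, limma adjusted p = 0.9996). The neural gene Pax6 measured 0.237 and 0.648 CPM in cyclopamine against 1.34 and 3.75 CPM in control (-1.60, SE 0.51, adjusted p = 0.450).

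Exons of Pax1 and Pax9 share bases with genes on the opposite strand, 183 with AI646519 and 189 with Slc25a21, and no source used here says whether the counting used strand. AI646519 had 3 and 6 reads in cyclopamine against 0 and 5 in control. Slc25a21 had 3 and 18 reads in cyclopamine against 1 and 3 in control. The part of antisense reads in the values of Pax1 and Pax9 was not tested.

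Alx4 and Alx1 encode paired-like homeodomain proteins. Loss of Alx4 in the mouse is known to give extra anterior digits with ectopic Hedgehog signalling, and Alx1 is known from head and limb mesenchyme. Alx4 measured 94.0 and 109 CPM in cyclopamine against 96.1 and 101 CPM in control. The groups overlapped, and the log2 fold change was 0.040 (SE 0.15, 95% interval -0.28 to 0.36, limma adjusted p = 0.9996). Alx4 was the member with the log2 fold change nearest 0, and its interval holds changes of either sign up to those bounds. Alx1 measured 43.5 and 32.7 CPM in cyclopamine against 39.5 and 27.0 CPM in control. Here library 1 of each group lay above library 2 of both groups. The log2 fold change was 0.21 (SE 0.21, limma adjusted p = 0.9996), and it was 0.48 without control 1 and -0.066 without control 2. Exons of Alx1 share 243 bases with a noncoding gene on its own strand.

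Irx3 and Irx5 encode Iroquois homeodomain proteins and are known from anterior limb mesenchyme. Irx5 measured 30.8 and 22.7 CPM in cyclopamine against 27.2 and 10.4 CPM in control. Control 2 stood below the other 3 libraries, and control 1 lay between the cyclopamine libraries. The log2 fold change was 0.63 (SE 0.31, 95% interval -0.04 to 1.30, limma adjusted p = 0.875). Leaving out either control moved this value, to -0.041 without control 2 and to 1.30 without control 1. In the fit without control 1 Irx5 passed the threshold (adjusted p = 0.0134, with 0.295% of genes called higher). Irx3 measured 48.6 and 31.2 CPM in cyclopamine against 42.0 and 22.5 CPM in control, with control 1 again above cyclopamine 2. Its log2 fold change was 0.34 (SE 0.26, limma adjusted p = 0.9996), and it was -0.11 without control 2 and 0.78 without control 1 (adjusted p = 0.222). Exons of Irx3 share 124 bases with Irx3os on the opposite strand.

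The pair lies in a single Iroquois cluster, at chr8:91798525-91802067 (Irx3) and chr8:92357625-92376286 (Irx5) in GRCm38, 555.6 kb apart. Per kilobase of exon, the level of Irx5 was 0.561 and 0.642 of that of Irx3 in cyclopamine against 0.573 and 0.41 in control. The ratio was thus lowest in control 2, and control 1 lay between the cyclopamine libraries. Of the 4 other Iroquois genes, 3 reached the filter, and limma, edgeR and DESeq2 called 0 of them, with 0 at an unadjusted p under 0.05. Irx4 measured 4.73 and 2.43 CPM in cyclopamine against 2.37 and 1.84 CPM in control (log2 fold change 0.60, SE 0.38, limma adjusted p = 0.977). Irx1 measured 3.94 and 2.19 CPM in cyclopamine against 2.48 and 1.25 CPM in control (0.60, SE 0.41, adjusted p = 0.989).

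Asb4 was the most abundant of the 8 genes and the one whose cyclopamine libraries differed least on the log2 scale, while Meox2 was the only gene with a log2 fold change below 0. Asb4 encodes an ankyrin repeat and SOCS box protein, a type of adaptor that brings substrates to a ubiquitin ligase. It measured 765 and 747 CPM in cyclopamine against 685 and 640 CPM in control. Both treated libraries lay above both controls, and the means were 756 ± 12.8 CPM in cyclopamine and 663 ± 32.5 CPM in control (SD, n = 2 each). The log2 fold change was 0.19 (SE 0.18, 95% interval -0.19 to 0.57, limma adjusted p = 0.9996), and it ran from 0.14 to 0.24 in the fits without a library. Of the other Asb genes, 15 were found in the table and 6 were tested, at 14.3 to 34.5 CPM. Limma, edgeR and DESeq2 called 0 of these 6, with 0 at an unadjusted p under 0.05.

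Meox2 encodes a homeodomain protein of somites and limb muscle precursors. It measured 27.5 and 47.7 CPM in cyclopamine against 30.3 and 53.4 CPM in control. Library 2 of each group lay above library 1 of both groups. The log2 fold change was -0.15 (SE 0.26, limma adjusted p = 0.9996), and its sign turned without control 2 (0.25) and without cyclopamine 1 (0.24). Its relative Meox1, a somite gene, measured 22.3 and 12.3 CPM in cyclopamine against 23.0 and 17.9 CPM in control (-0.28, SE 0.25, limma adjusted p = 0.9996). In Meox1 library 1 of each group was the higher, unlike in Meox2.

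**Figure D2:**
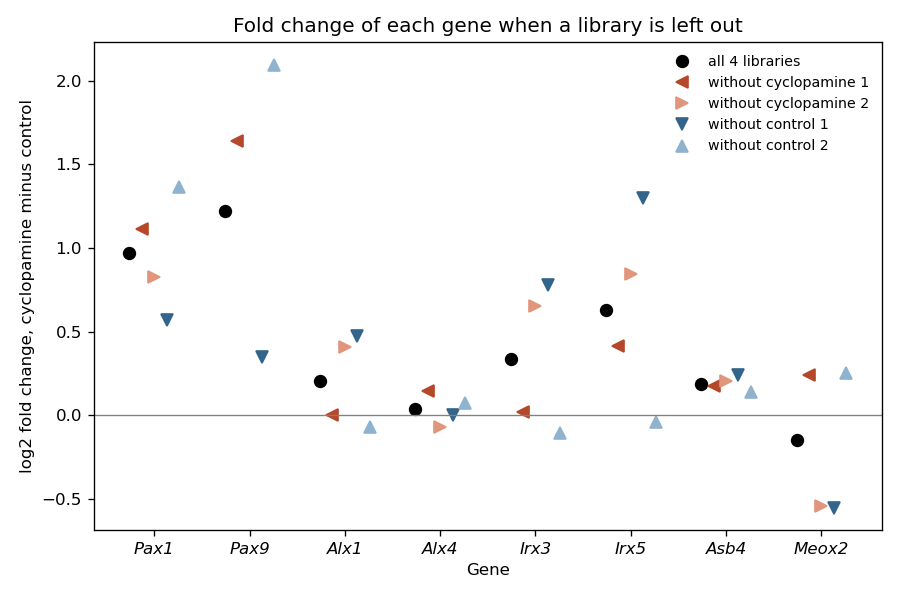
Log2 fold change (cyclopamine minus control, limma on log2(CPM + 0.5)) of each anterior gene with all 4 libraries and with each library left out in turn. Pax1, Pax9 and Asb4 stay above 0 wherever they were fitted, Asb4 within 0.14 to 0.24, while Alx1, Alx4, Irx3, Irx5 and Meox2 take both signs; Pax9 has no point without cyclopamine 2, where it fell under the filter.

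The promoter windows of Pax1 and Asb4 are shown because these are the members whose groups did not overlap. They are the 250 bases before a RefSeq transcription start in GRCm38.p6, on the plus strand, at chr2:147364744-147364993 and chr6:5383136-5383385. The Pax1 window lies inside the annotated span of the gene, chr2:147361925-147393295, and so not upstream of all its transcripts. The Asb4 window lies directly before the annotated gene.
Pax1: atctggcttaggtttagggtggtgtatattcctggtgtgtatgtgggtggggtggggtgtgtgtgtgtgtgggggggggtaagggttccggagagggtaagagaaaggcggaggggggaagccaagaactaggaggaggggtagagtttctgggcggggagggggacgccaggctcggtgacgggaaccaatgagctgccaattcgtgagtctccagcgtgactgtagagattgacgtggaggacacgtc
Asb4: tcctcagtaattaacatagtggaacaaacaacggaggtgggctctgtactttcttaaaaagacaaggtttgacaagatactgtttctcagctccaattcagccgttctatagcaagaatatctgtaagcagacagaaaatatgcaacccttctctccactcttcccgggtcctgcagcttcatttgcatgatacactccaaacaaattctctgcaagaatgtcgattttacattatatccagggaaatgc
RefSeq windows were matched for 5 of the 8 genes, 6 windows in all because Asb4 has another start. The GLI consensus GACCACCCA was searched on both strands, so also as TGGGTGGTC. It was found in 0 of the 6 windows, and in 0.225% of 32851 windows of the same length over all genes. With 1 mismatch allowed it was again in 0 of 6, against 5.79% of all windows, and so no base is in capitals. This says only that these letters are not in these windows.

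In GRCm38 the annotated genes are at chr2:147361925-147393295 (Pax1), chr12:56691767-56712822 (Pax9), chr10:102998707-103030215 (Alx1), chr2:93642384-93681339 (Alx4), chr6:5383386-5433022 (Asb4) and chr12:37108540-37179534 (Meox2). Per length of exon, the levels of the 8 genes covered a wide range. Asb4 was highest, with a mean over the 4 libraries of 180 CPM per kilobase and libraries from 163 to 195. Meox2 followed with a mean of 16.8 and a range of 11.7 to 22.6, then Alx4 with 14.2 (13.3 to 15.4) and Irx3 with 13.1 (8.14 to 17.6). The ranges of these 3 genes overlapped, so their order is not fixed by these libraries. Irx5 (mean 7.29, from 3.34 to 9.86) and Alx1 (mean 6.20, from 4.68 to 7.55) overlapped as well. Pax1 had a mean of 3.47 CPM per kilobase, between 1.70 and 5.05, and Pax9 a mean of 0.229 with a maximum of 0.465, below every library of the other genes.

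In 6 of the 8 genes the difference between the controls was larger on the log2 scale than the difference between the group means, as it was in 62.9% of all genes tested. The difference between the cyclopamine libraries was the larger in 4 of the 8 (Alx1, Alx4, Irx3 and Meox2), and in 60.4% of all genes tested. Alx1, Irx3 and Irx5 were higher in both libraries numbered 1 than in both numbered 2, as were 22.2% of all genes tested. Pax9, Alx4 and Meox2 were higher in both libraries numbered 2 than in both numbered 1, as were 21.4% of all genes tested. Meox2 differed by 0.78 between cyclopamine 2 and cyclopamine 1 and by 0.81 between control 2 and control 1, and Alx4 by 0.21 and 0.070. Irx5 had a log2 difference of -0.44 between cyclopamine 2 and cyclopamine 1 and of -1.34 between control 2 and control 1. A larger gap between the controls was seen in 0.951% of the genes tested. Irx3 differed by -0.63 between the cyclopamine libraries and by -0.89 between the controls, and Asb4 by -0.035 and -0.10. The labels do not tie a replicate number to a litter, a day or a culture.

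**Figure D3:**
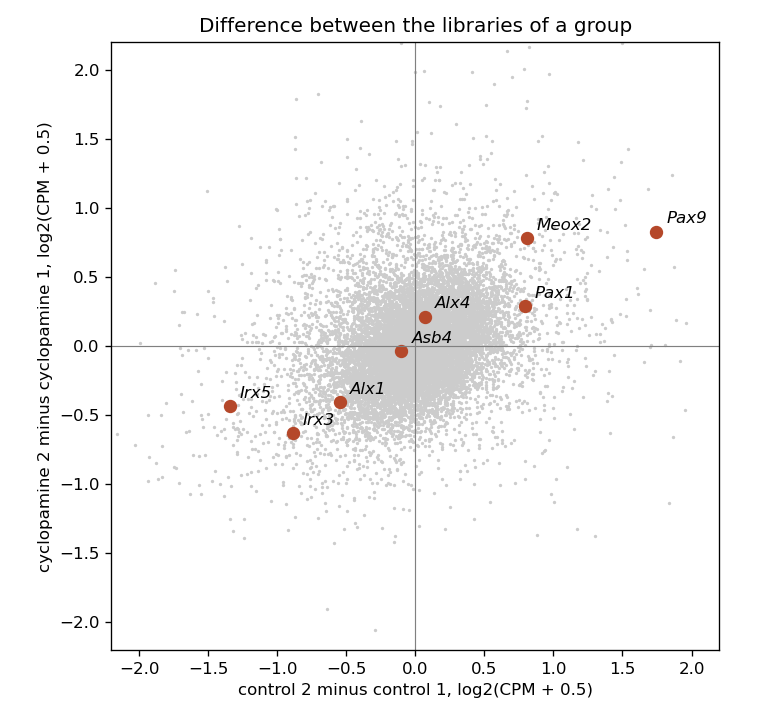
Difference in log2(CPM + 0.5) between library 2 and library 1 of the control group (x axis) and of the cyclopamine group (y axis); grey points are the genes tested, red points the anterior genes, and 48 genes outside the axes are not drawn. Irx3, Irx5 and Alx1 lie low and left, Meox2, Pax9 and Pax1 high and right, and Asb4 near the origin.

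Alx1, Irx3 and Irx5 shared the same order of libraries, with cyclopamine 1 highest, then control 1, cyclopamine 2 and control 2. This order was found in 6.31% of all genes tested. Meox2 ran in the exact reverse, an order found in 5.51%. Among the 103 other genes of the lists searched, the closest pattern to that of Alx1 was that of the endothelial gene Emcn, with a root mean square difference of 0.043 in centred log2 values over the 4 libraries. For Irx3 it was Hoxa5 (0.069), for Irx5 the embryonic globin gene Hbb-bh1 (0.14) and for Meox2 Asb13 (0.14). Alx4 was closest to Asb3 (0.022), Asb4 to Asb6 (0.039), Pax9 to Pax1 (0.41) and Pax1 to Klf1 (0.23). With 4 libraries, such likeness is a description only.

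Markers of other tissues moved with the libraries too. The 6 erythroid markers summed to 1261 and 747 CPM in cyclopamine against 798 and 354 CPM in control, the same order of libraries as Irx3, Irx5 and Alx1, with 0 of the 6 at 0 reads in all libraries. Limma, edgeR and DESeq2 called 0 of the 6. In limma 3 lay above control at an unadjusted p under 0.05, as did 3.04% of all genes tested. Hbb-bh1 and Hba-x, embryonic globin genes, rose without cyclopamine 2 and without control 1. Neural tissue also expresses Irx3 and Irx5. The 8 neural markers found in the table summed to 7.81 and 10.7 CPM in cyclopamine against 39.1 and 65.3 CPM in control. Of the 6 tested, 4 fell in limma (Tubb3, Elavl3, Stmn2 and Zic1), where 0.236% of all genes tested were called lower. All 6 had an unadjusted p under 0.05. Sox2 and Pax6 reached the expression filter through their control libraries, so the counts that include them are given as a description. With no intensity trend limma called 0 of the 6. EdgeR and DESeq2 on the recovered reads called 3, Tubb3, Elavl3 and Stmn2. Neurog1 and Neurog2 were at 0 in both cyclopamine libraries. Sclerotome and somite cells express Pax1, Pax9 and Meox2. The 7 markers of that list found in the table summed to 128 and 114 CPM in cyclopamine against 108 and 103 CPM in control, most of it from Tbx18, which the limb also expresses. The 6 markers without Tbx18 summed to 46.0 and 25.6 CPM in cyclopamine against 45.3 and 32.4 CPM in control. The 8 limb myoblast markers summed to 101 and 116 CPM in cyclopamine against 81.0 and 112 CPM in control, higher in both libraries numbered 2 within their groups, as Meox2 was. The 6 pharyngeal arch markers summed to 33.7 and 26.7 CPM in cyclopamine against 41.5 and 16.4 CPM in control. The 7 endothelial markers summed to 447 and 498 CPM in cyclopamine against 424 and 413 CPM in control. Both treated libraries lay above both controls in this sum. Of the single markers, 2 of the 7 showed this, Pecam1 and Cdh5, as did 16.8% of all genes tested. Flt1 was the 1 marker with a log2 fold change below 0 (-0.15). The 7 ectoderm markers summed to 371 and 279 CPM in cyclopamine against 371 and 290 CPM in control. Of these Fgf8, the signal of the apical ectodermal ridge, fell (-1.64, limma adjusted p = 0.000973). The 6 macrophage markers summed to 15.1 and 22.3 CPM in cyclopamine against 19.8 and 20.5 CPM in control. The part of these cells in the anterior genes' values was not tested. Outside these lists, the alpha-fetoprotein gene Afp and the albumin gene Alb differed far more between the treated libraries. On the log2(CPM + 0.5) scale, cyclopamine 2 lay above cyclopamine 1 by 7.61 for Afp and 7.05 for Alb. Control 2 lay above control 1 by 0.51 and 1.10. Both genes were chosen with their values in view, and the source of these gaps was not tested.

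No further gene of an anterior list passed the test either. Of 5 further anterior genes, all tested, 3 had a log2 fold change above 0 and 2 below, with a median of 0.064. Limma, edgeR and DESeq2 called 0 of the 5. In limma 2 had an unadjusted p under 0.05, 1 higher and 1 lower, where 3.04% of all genes tested were higher at that p. Tbx18, a T-box gene of proximal anterior mesenchyme, measured 82.2 and 88.2 CPM in cyclopamine against 62.9 and 71.0 CPM in control (0.35, SE 0.15, limma adjusted p = 0.807). Zbtb16, a zinc finger repressor gene needed for limb patterning, went the other way, at 47.3 and 40.7 CPM in cyclopamine against 59.4 and 55.0 CPM in control (-0.38, SE 0.16, adjusted p = 0.792). Gli3 itself measured 339 and 395 CPM in cyclopamine against 325 and 354 CPM in control (0.11, SE 0.16). In a list of 7 proximal genes 0 were called by limma, edgeR or DESeq2 and 1, Shox2, had an unadjusted p under 0.05, while the median log2 fold change of 6 shoulder girdle genes was 0.042.

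Among posterior genes, expressed nearer the source of Sonic hedgehog, several fell in the same libraries. Of 12 tested, limma called 6 lower (Hoxd11, Hoxd12, Hoxd13, Sall1, Grem1 and Fgf4) and 0 higher, with a median log2 fold change of -0.73. Over all genes tested, limma called 0.236% lower. EdgeR on the recovered reads called 5 of the 12 lower, without Hoxd11, and DESeq2 called the same 6 as limma. Fgf4 had 4 and 6 reads in cyclopamine against 55 and 132 reads in control. It reached the expression filter through its control libraries. The 6 calls became 4 without control 1 and 5 in each of the other fits without a library. Hoxd12, Hoxd13, Sall1 and Fgf4 were called in all of these fits. Hoxd12, a homeobox gene of the distal and posterior limb, measured 35.3 and 22.4 CPM in cyclopamine against 75.6 and 72.1 CPM in control (-1.38, SE 0.19, limma adjusted p = 0.00394). Tbx2 and Tbx3, T-box genes of the limb margins, had log2 fold changes of 0.044 and 0.15. The difference between the anterior and posterior genes as groups was not tested. The 95% intervals of Alx4 and Asb4 ended at 0.36 and 0.57, and those of Pax1 and Pax9 at 1.52 and 2.46, so the data bound the change of the anterior genes unequally.

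**Figure D4:**
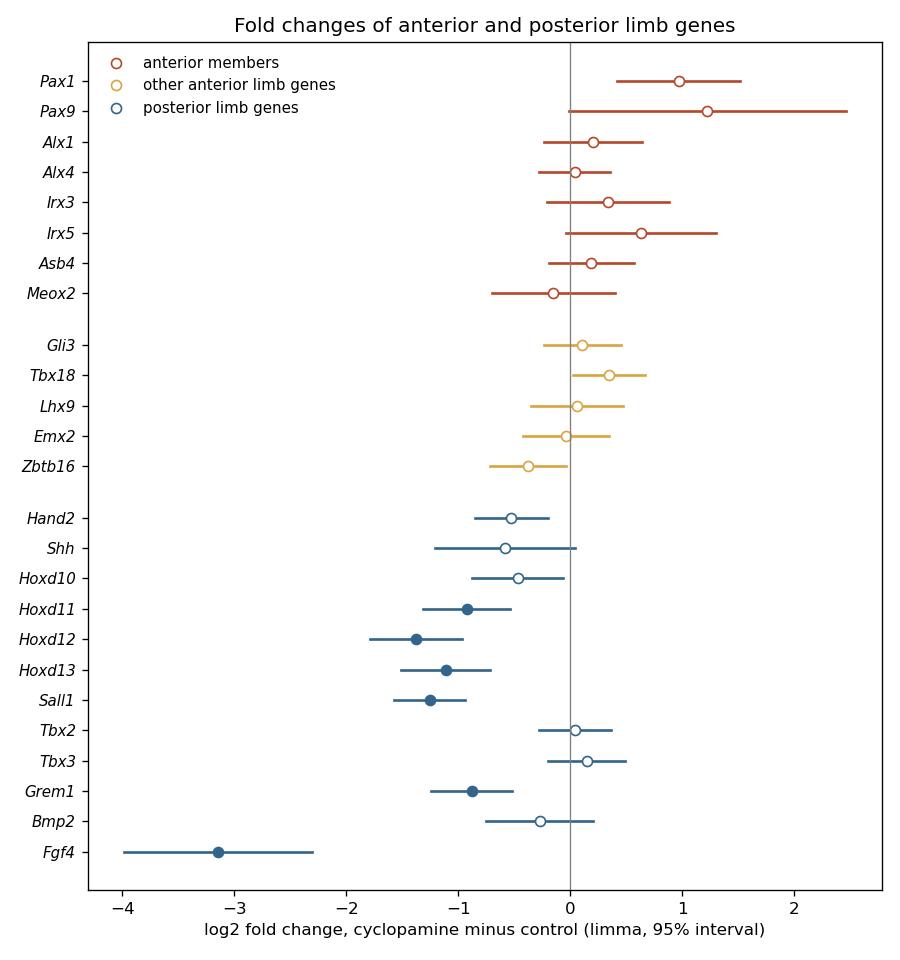
Log2 fold changes (cyclopamine minus control) with 95% intervals from limma for the 8 anterior genes, 5 further anterior genes and 12 posterior genes; filled points passed an adjusted p of 0.05 over all genes tested. All 6 filled points are posterior genes, and every anterior point is open.

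Genes next to the members on the chromosome were not called either. The nearest expressed gene on each side was taken from the annotation, which gave 14 genes that are not members. Limma, edgeR and DESeq2 called 0 of these 14, and their log2 fold changes ran from -0.61 to 0.76. In limma 3 had an unadjusted p under 0.05, 2 higher and 1 lower, where 3.04% of all genes tested were higher at that p. The 3 were Etv1, next to Meox2, and both neighbours of Asb4. Etv1, an ETS transcription factor gene, measured 27.9 and 31.6 CPM in cyclopamine against 43.2 and 39.3 CPM in control (-0.47, limma adjusted p = 0.616). Pdk4, which encodes a kinase that restrains pyruvate dehydrogenase, measured 3.16 and 4.38 CPM in cyclopamine against 2.06 and 1.91 CPM in control (0.76, limma adjusted p = 0.848). Pon2, a paraoxonase gene, measured 22.7 and 22.2 CPM in cyclopamine against 12.4 and 19.5 CPM in control (0.52, adjusted p = 0.802). The nearest expressed neighbours of Pax1, Xrn2 and Thbd, lay 283.9 and 1011.2 kb away and had log2 fold changes of -0.072 and -0.61. Ext2, whose annotation overlaps that of Alx4, measured 73.0 and 77.1 CPM in cyclopamine against 73.8 and 69.0 CPM in control.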

How the data were processed

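The 4 RNA sequencing libraries, made from cultured forelimbs, were read on a SOLiD sequencer. The submitters' processing notes name the build mm10, HTSeq 0.5.4p5, SAMtools, TopHat2 2.0.9, edgeR 3.4.2 and Bowtie, without saying which step used which. The authors deposited a normalized signal per gene and library, scaled to CPM of an effective library size. All deposited values were whole multiples of 1 read (100% within 0.01 of a read), so reads could be recovered, at 0.0735 to 0.103 CPM per read. The authors' deposited comparison lists p-values, false discovery rates and log2 fold changes by gene and names no test.

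Each gene whose mean reached 1 CPM was compared in limma 3.58.1 (R 4.3.3), using log2(CPM + 0.5) values and an intensity trend, two-sided, Benjamini-Hochberg adjusted over 13568 genes at 0.05. This scale understates changes of low genes. Alternatives were edgeR 4.0.16 (quasi-likelihood) and DESeq2 1.42.0 on recovered reads, other scalings, filters and pseudocounts, no trend, a replicate block and leaving out each library. Without a library, the lone library of a group is assumed to vary like the others. Coordinates and exon lengths are from GENCODE vM21 (GRCm38), promoter sequences from RefSeq (GRCm38.p6). Named genes were the members, the Hedgehog targets, of each list the called genes and up to 2 more by smallest p, chromosomal neighbours and closest patterns; any other name was chosen with its values in view. Some genes of these lists are not reported here. The members and lists were chosen with earlier results of these data known.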

Additional observations from a re-analysis of the deposited data

How the results depend on the processing

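Over 14 alternatives, 99 of 110 values of the 8 genes kept their sign and their side of the threshold, 6 changed sign and 5 passed the threshold. All 6 changes of sign came from leaving out a library, where log2 fold changes ranged from -0.066 to 0.48 for Alx1, -0.067 to 0.15 for Alx4, -0.11 to 0.78 for Irx3, -0.041 to 1.30 for Irx5 and -0.55 to 0.25 for Meox2. Leaving out a library also changed the sign for Gli3 (-0.0011 to 0.22), Tbx2 (-0.030 to 0.12), Tbx3 (-0.051 to 0.35), Pax3 (-0.033 to 0.55) and Meox1 (-0.70 to 0.13). Without a library, 0 to 1 of the 8 genes were called higher, and the median of the 8 ran from 0.11 to 0.41. Over all genes, 24 to 68 were then called higher and 19 to 56 lower, against 6 and 32. DESeq2 on recovered reads called 10 higher, scaling to the table total 3 higher and 17 lower, no filter 1 higher and 1 lower, and no intensity trend 0 in either direction. The 6 posterior calls became 5 in edgeR, and 4 with scaling to the table total or the filter at 5 CPM. They became 0 with no filter or no intensity trend. The 2 Hedgehog target calls became 1 with no filter and 0 with no trend. With a replicate block limma called 186 genes higher (1.37%) and 165 lower, and 2 of the 8 genes, Pax1 (adjusted p = 0.000156) and Irx5 (adjusted p = 0.0187). The deviations of same-numbered libraries had r = 0.274 across genes in 2 pairs. The labels tie the numbers to no shared source, and whether same-numbered libraries share one is not known. The cause of these differences was not tested. Depth limits Pax9 most, at 59 reads in all.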
